A study of Mus musculus with 2 samples.

Results

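Short pieces of small nuclear RNAs (snRNAs), small nucleolar RNAs (snoRNAs) and small Cajal body RNAs (scaRNAs) were described in small RNA libraries from mouse testes. The members were selected on their read counts: they are the GENCODE M21 genes annotated as 1 of these 3 types that matched at least 20 reads of 18 to 40 nt, exactly, in sense and over the whole read, with both libraries summed. This left 468 of 2941 annotated genes: 278 of 1383 snRNA genes, 57 of 108 C/D box snoRNA genes, 14 of 42 H/ACA box snoRNA genes, 101 of 1357 snoRNA genes whose symbol names neither box, called other snoRNAs here, and 18 of 51 scaRNA genes. Of the genes left out, 178 had 1 to 19 reads and 2295 had 0. At the edge of the rule, 5 genes had 19 reads and 4 had 20.

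The study excised exons 2 to 4 of Tdrkh, which carry the start codon in exon 2, by EIIa-Cre in mice of mixed C57Bl6 and 129 background. Tdrkh encodes a Tudor domain protein of the piRNA pathway. Testes were taken at 11 days after birth (11 dpp) from Tdrkh-/- mice and from Tdrkh+/- mice, the heterozygous control, which carry the same deletion on 1 chromosome; no wild-type library was analysed here. Each genotype is 1 library from 5 pooled pairs of testes, so there is no replicate, no test was made, and every interval below covers counting error only. Pooled testes hold germ cells and somatic cells, and fewer cells of a type cannot be told apart from less RNA per cell.

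snRNAs form the core of the spliceosome: U1, U2, U4, U5 and U6 act on most introns, and U11, U12, U4atac and U6atac on a rare class of introns. C/D box snoRNAs guide ribose methylation and H/ACA box snoRNAs guide pseudouridylation, mostly of ribosomal RNA, and scaRNAs guide the same changes on snRNAs. Most mammalian snoRNAs are cut out of introns of host genes, and trimming stops at the proteins bound to the snoRNA, so that its own ends are fixed. piRNAs, the small RNAs that bind PIWI proteins in germ cells, are cut from long single-stranded transcripts and mostly begin with U.

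The Tdrkh-/- list held 60973266 reads and the Tdrkh+/- list 43172204. The members took 28079 (0.0461%) and 25672 (0.0595%) of them in 2954 distinct sequences. Levels are given per microRNA read of 18 to 25 nt (2486303 and 2363475), and reads that matched several members were divided equally among them. All 8 germ cell microRNAs of a marker list had reads in both libraries, while the liver microRNA Mir122 had 1 and 0. Per microRNA read the germ cell list differed by a log2 ratio of 0.27 and the erythroid list by 0.55, a size like that of the class ratios below. Neither list moved as 1. Among germ cell microRNAs, Mir470 was higher (185651 and 126759 reads), while Mir34c (119 and 549), Mir463 (927 and 1244) and Mir883a (128 and 226) were lower. The erythroid value rests on Mir486 (15669 and 10182), and Mir451a went the other way (20 and 26). The part of these lists in the class ratios was not tested. Sense reads from Tdrkh itself numbered 792 and 1134, which does not check the deletion, since the later exons remain.

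The fragments have characteristic places on their parent RNAs, and the RNAs below show the main forms. Each RNA is written 5′ to 3′ as the GENCODE M21 transcript, with T for U, and the single most read fragment of both libraries summed is in capitals. Gm23262, Snord52, Gm22767 and Gm22711 give 5′ pieces, Gm24455 and Snora61 give 3′ pieces, and the fragments of the other RNAs lie inside.
Gm23262: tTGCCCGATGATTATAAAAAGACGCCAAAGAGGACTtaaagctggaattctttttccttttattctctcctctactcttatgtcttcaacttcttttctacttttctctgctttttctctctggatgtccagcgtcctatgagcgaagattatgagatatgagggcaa
Snord52: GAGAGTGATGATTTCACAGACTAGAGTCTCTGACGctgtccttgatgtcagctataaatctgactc
Gm22767: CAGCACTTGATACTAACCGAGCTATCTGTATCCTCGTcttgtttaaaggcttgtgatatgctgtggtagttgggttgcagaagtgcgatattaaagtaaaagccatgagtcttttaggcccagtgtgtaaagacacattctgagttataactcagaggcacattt
Gm22711: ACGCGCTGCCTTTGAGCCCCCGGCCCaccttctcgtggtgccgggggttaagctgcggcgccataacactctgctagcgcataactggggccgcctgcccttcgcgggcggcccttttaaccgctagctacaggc
Gm24455: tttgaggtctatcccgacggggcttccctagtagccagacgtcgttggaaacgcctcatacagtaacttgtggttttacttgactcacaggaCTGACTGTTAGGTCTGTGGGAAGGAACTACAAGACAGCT
Snora61: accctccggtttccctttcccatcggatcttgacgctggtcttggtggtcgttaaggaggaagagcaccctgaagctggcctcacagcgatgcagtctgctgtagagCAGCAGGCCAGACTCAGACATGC
Rnu2-10: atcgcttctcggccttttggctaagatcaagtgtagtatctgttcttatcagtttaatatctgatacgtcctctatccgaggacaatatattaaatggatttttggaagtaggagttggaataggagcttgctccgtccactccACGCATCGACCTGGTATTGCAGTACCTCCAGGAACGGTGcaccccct
Rnu11: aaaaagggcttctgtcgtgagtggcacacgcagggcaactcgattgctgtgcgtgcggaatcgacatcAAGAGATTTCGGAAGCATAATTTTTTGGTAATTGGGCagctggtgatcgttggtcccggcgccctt
Gm22710: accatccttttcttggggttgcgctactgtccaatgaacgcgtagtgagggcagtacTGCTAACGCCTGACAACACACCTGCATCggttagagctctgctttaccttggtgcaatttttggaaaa
In GRCm38 coordinates, Gm23262 lies at chr7:111076060-111076227 (minus strand, in an intron of Eif4g2), Snord52 at chr17:34950952-34951017 (minus, in a retained intron of 1110038B12Rik) and the scaRNA Gm22767 at chr4:132838383-132838547 (minus, in an intron of Ppp1r8). Gm22711 lies at chr11:106501243-106501377 (plus, outside other genes), Gm24455 at chr9:15313802-15313932 (plus, in a retained intron of Taf1d) and Snora61 at chr4:132310240-132310369 (plus, in an exon of the host gene Snhg12). Rnu2-10, a U2 gene, lies at chr11:101658238-101658428 (plus), Rnu11, the U11 gene, at chr4:132270080-132270213 (minus), and Gm22710 at chr1:118459141-118459265 (minus, in an exon of the noncoding RNA 2900060B14Rik).

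Other snoRNAs carried the most member reads in each library, 16744 in Tdrkh-/- and 11713 in Tdrkh+/-, and their level per microRNA read was 1.36-fold higher in Tdrkh-/- (95% counting interval 1.33 to 1.39). snRNA fragments went the other way, with 4117 and 7829 reads, a ratio of 0.50 (0.481 to 0.519). C/D box snoRNAs lay close to equal, with 3851 and 3914 reads (ratio 0.935, 0.894 to 0.978). H/ACA box snoRNAs had 1236 and 887 reads (1.33, 1.22 to 1.45), and scaRNAs 2131 and 1329 (1.52, 1.42 to 1.63). H/ACA box snoRNAs, other snoRNAs and scaRNAs were thus higher per microRNA read, and snRNA was the one class well below 1. The snRNA value turned over, to a log2 ratio of 0.38, without 5′ starts that were read in 1 library alone, and the C/D box value did the same at 0.32; these starts are described below. Per read listed in place of per microRNA read, the H/ACA log2 ratio passed from 0.41 to -0.018 and the other snoRNA value from 0.44 to 0.017. With each distinct sequence counted once, all 3 of the snRNA, H/ACA and other snoRNA log2 ratios changed sign, to 0.12, -0.027 and -0.021. All these values use exact matches only. Sequences without an exact match that fit an snRNA with 1 substitution were read 5962 and 2320 times, of which 4119 and 239 fell to Gm23744. That is 1.45 and 0.296 per exact snRNA read, against 0.224 to 0.340 in the other classes. The snRNA ratio thus holds for exact reads only.

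Of 468 members, 198 kept at least 20 reads after division. Past a ratio of 2, 47 of these were higher in Tdrkh-/- and 47 lower (23.7% each), against 15.8% higher and 14.9% lower among all 22031 genes with at least 20 reads. The median log2 ratio was 0.30 for the members and 0.03 for those genes. The 47 lower members came from 23 families of genes that share reads, with 13 in the U2 family and 12 in the U3 family, and the 47 higher members from 44. By class, 15 of 30 snRNAs were lower and 8 higher, 20 of 56 C/D box snoRNAs lower and 12 higher, 0 of 13 H/ACA snoRNAs lower and 2 higher, 11 of 87 other snoRNAs lower and 21 higher, and 1 of 12 scaRNAs lower and 4 higher. With the minimum at 100 reads, 12 of 82 were higher and 22 of 82 lower, beside 14.7% and 11.6% of all 15197 genes that deep, so the share of higher members is then near that of all genes. A member could also enter the list through 1 library, since 71 of the 468 had under 3 matching reads in Tdrkh-/- and 19 had under 3 in Tdrkh+/-. The 270 members under 20 reads after division, 248 of them snRNA genes, are mostly copies that share reads, such as the 204 genes of the U6 family.

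**Figure D1:**
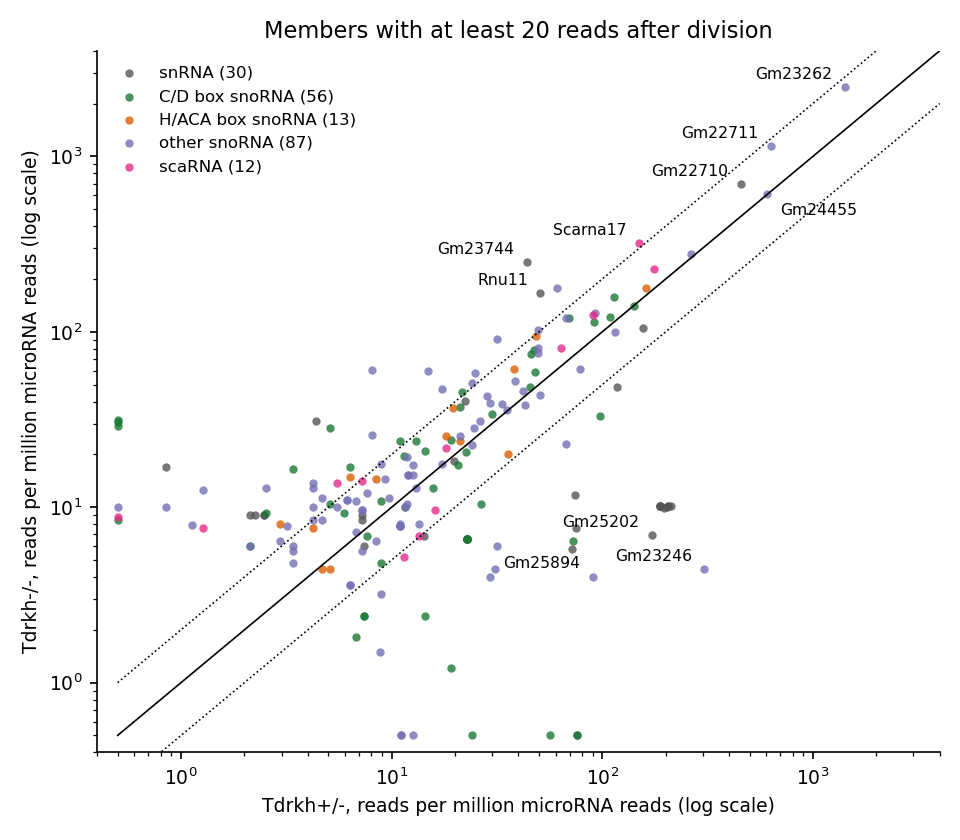
Level of the 198 members with at least 20 reads after division, in reads scaled to microRNA reads on log axes, Tdrkh+/- across and Tdrkh-/- up; each point is a gene, colours are classes, the solid line marks equal levels and the dotted lines 2-fold, and members with 0 reads in a library are drawn at the edge. Most abundant snoRNAs and scaRNAs lie near or above the line, Gm23246 (11 and 722 reads) far below it, and the 13 genes of the U2 family that were lower lie below the lower dotted line.

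Among the snoRNAs without a box in their symbol, Gm23262 was read most, 6140 times in Tdrkh-/- and 3351 times in Tdrkh+/-, a log2 ratio of 0.80 (0.74 to 0.86). Its reads shared an end more than a start: 74.1% and 73.0% ended at nt 36, while 52.0% and 57.2% began at nt 2 and 20.7% and 17.1% at nt 4. Mean length was 34.1 and 34.0 nt. Gm22711 followed with 2837 and 1487 reads (log2 ratio 0.86), of which 80.7% and 74.7% began at nt 1, and its fragments were short, 25.7 and 25.8 nt on average. Gm24455, from Taf1d, gave the 3′ counterpart: 1513 and 1436 reads (log2 ratio 0.00), of which 98.3% and 97.1% began at nt 93 and 98.7% in each library ended at the last base, nt 131. Gm24451, in an intron of Nop56, which encodes a core protein of C/D box snoRNPs, was cut alike, with 693 and 622 reads (log2 ratio 0.08), 82.4% and 88.9% of them from nt 95 and 91.6% and 92.9% to its last base, nt 133. In these 4 RNAs the libraries shared the most used start and the most used end, whatever the level did.

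Counted by reads, C/D box snoRNA fragments began mostly at or within 3 nt of the 5′ end of the RNA, near the C box. Counted by member this was less general. Of 41 C/D box members with at least 50 reads, 18 had their most used start at the 5′ end. The most used end lay at the 3′ end in 4, and 20 had neither. This count is of genes. The class holds 10 genes with a Rnu3 symbol (U3) that share reads, so the same reads can be counted more than once. On 1 of these, Rnu3b1, the leading starts lay inside the RNA, at nt 76 in Tdrkh-/- and nt 58 in Tdrkh+/-. The share of reads that began within 3 nt of the annotated start was 60.5% (58.9 to 62.0) in Tdrkh-/- and 54.3% (52.8 to 55.9) in Tdrkh+/-, and 14.4% and 11.1% ended within 3 nt of the annotated end. At the exact first base the share was 25.3% and 30.5%, which turns the order of the libraries, and with each distinct sequence counted once it was 48.75% and 44.3%. Snord52 had 390 and 268 reads (log2 ratio 0.47), of which 99.2% and 98.1% began at nt 1, and the fragment in capitals above, nt 1 to 35, made up 89.2% of them. Snord11, in an intron of Nop58, another core C/D box snoRNP protein gene, had 351 and 334 reads (log2 ratio 0.00), 92.9% and 91.3% of them from nt 3. Both are thus cut at or beside the mature 5′ end, and the next 2 C/D box members share that form. Snord89 had 298 and 164 (0.79), 96.6% and 92.7% from nt 4, and Snord60 had 283 and 217 (0.31), 78.1% and 87.1% from nt 1. Among these most read members Snord19 alone differed. Its 303 and 256 reads (0.17) began mostly inside, at nt 32, in 58.7% and 59.8%, and ran to nt 65. The C box motif TGATGA, searched in the first 20 nt, and the D box motif CTGA, searched in the last 15 nt, both on the sense strand, occurred together in 30 of 57 C/D box members and in 10.5% of all 2941 annotated genes of the 3 types. Reads of the class held the letters TGATGA in 49.7% and 56.2% of cases and CTGA, which also occurs at internal D′ boxes, in 75.4% and 65.3%.

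H/ACA box snoRNA fragments came from both ends, 35.8% (33.2 to 38.6) and 33.3% (30.3 to 36.5) at the 5′ end and 43.5% (40.8 to 46.3) and 50.6% (47.3 to 53.9) at the 3′ end, the end next to the ACA box. Snora24, from the host gene Snhg8, had 443 and 383 reads (log2 ratio 0.14), and 72.9% and 69.7% of them ended within 3 nt of its last base. Snora52, in a retained intron of Rplp2, had 153 and 90 (0.69), with 93.5% and 93.3% at the 3′ end. Snora61, which lay lower in Tdrkh-/-, had 50 and 84 (-0.82), with 100% and 96.4% there. All 3 are 3′ pieces that carry the ACA end. Snora64, in a retained intron of Rps2, was cut the other way: of its 236 and 114 reads (0.98), 84.7% and 86.8% began at the 5′ end. Snora75 had 92 and 46 reads (0.93), mostly from inside the RNA. Counted by member, the 5′ end was the more frequent. Of 9 H/ACA members with at least 50 reads, 5 had their most used start at the 5′ end. The most used end lay at the 3′ end in 3, and 1 had neither. The ACA motif ending 3 nt before the last base, on the sense strand, was found in 12 of 14 H/ACA members, in 37 of 101 other snoRNA members and in 10.7% of the 2941 annotated genes; 37 other snoRNA members held the C and D box pair.

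Within 3 nt, scaRNA fragments were the most confined to the ends of the 5 classes. Only 5.02% of reads in Tdrkh-/- and 2.78% in Tdrkh+/- touched neither end, against 20.6% and 16.3% for H/ACA, 19.3% and 15.3% for other snoRNAs, 25.1% and 34.6% for C/D box snoRNAs and 93.7% and 96.0% for snRNAs. Scarna17 had 794 and 352 reads (log2 ratio 1.10, 0.92 to 1.29), every one of which ended within 3 nt of its last base, and 98.4% and 97.2% at nt 78 of 79. Gm26083, in an exon of the host gene Snhg20, had 567 and 416 (0.37), 97.9% and 97.6% from nt 1, and Gm22767 had 308 and 214 (0.45), 100% and 98.6% from nt 1. Gm22009 had 200 and 150 (0.34), with 87.0% and 95.3% at the 3′ end, and Scarna2 had 54 and 43 (0.26), with 66.7% and 86.0% there. Each of these scaRNAs was thus read mostly from 1 of its ends, and from the same end in both libraries. At the exact last base the scaRNA 3′ share was 3.61% and 5.34% in place of 49.6% and 43.9%, while the exact first base held 43.1% and 52.0%. Without Scarna17, the scaRNA log2 ratio was 0.38 in place of 0.61.

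**Figure D2:**
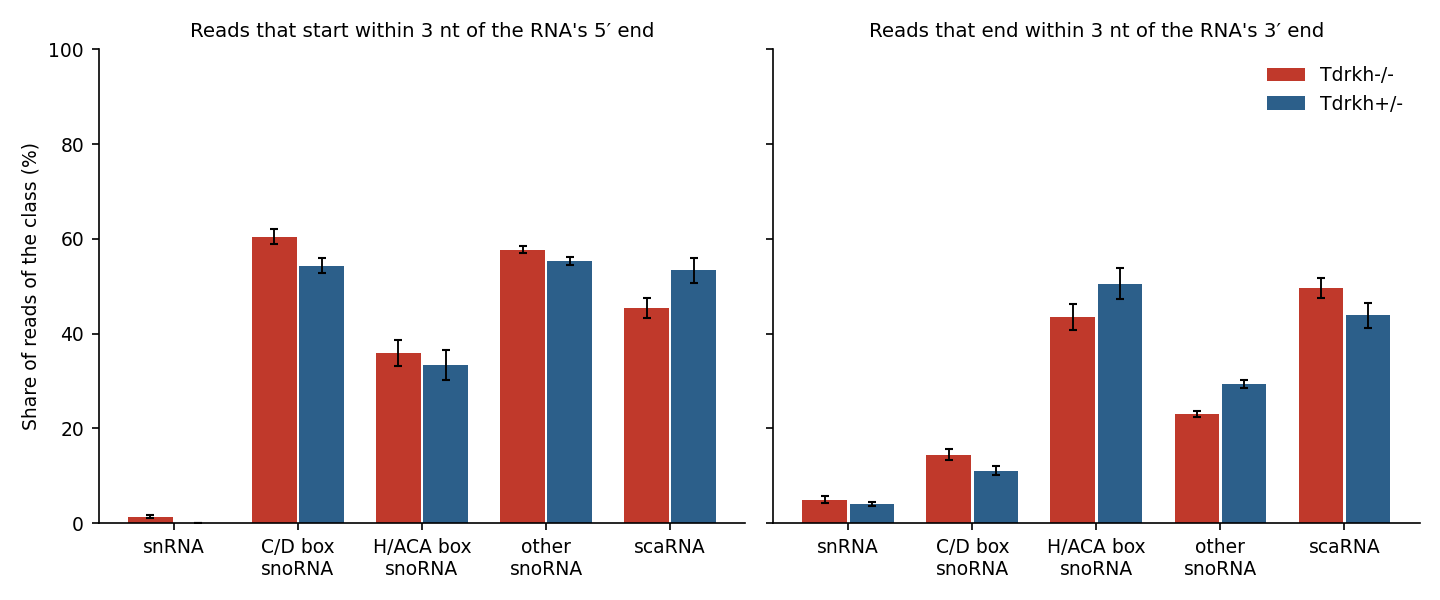
Share of reads of each class, in percent, that start within 3 nt of the annotated 5′ end (left) or end within 3 nt of the annotated 3′ end (right), in Tdrkh-/- and Tdrkh+/-; error bars are 95% Wilson intervals for counting error. snRNA bars stay under 5% on both sides, while the C/D box bars are tall on the left only and the scaRNA bars are tall on both sides.

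Fragment lengths set the snoRNA and scaRNA fragments apart from the bulk of the libraries. Reads in sense to genes of other types averaged 32.1 nt in Tdrkh-/- and 28.6 nt in Tdrkh+/-, a difference of 3.57 nt, and the ratio of reads of 31 to 37 nt to reads of 24 to 30 nt was 2.07 and 0.209, 9.89-fold apart. For the members that ratio was 1.97 and 1.18, 1.67-fold apart, and by class the step lay between 1.29-fold (scaRNA) and 2.01-fold (C/D box). Mean length was 32.5 and 31.7 nt for C/D box snoRNAs, 30.9 and 29.6 nt for H/ACA box snoRNAs, 32.8 and 32.2 nt for other snoRNAs and 33.7 and 33.3 nt for scaRNAs. These differences, 0.81, 1.34, 0.54 and 0.36 nt, were all smaller than that of the other genes. The C/D box and other snoRNA differences turned to -0.67 and -0.067 nt without the starts read in 1 library alone. snRNA fragments were shorter in Tdrkh-/-, 32.0 against 34.4 nt (-2.35 nt), with the most frequent length at 34 and 39 nt, and without those starts the difference was 2.69 nt.

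**Figure D3:**
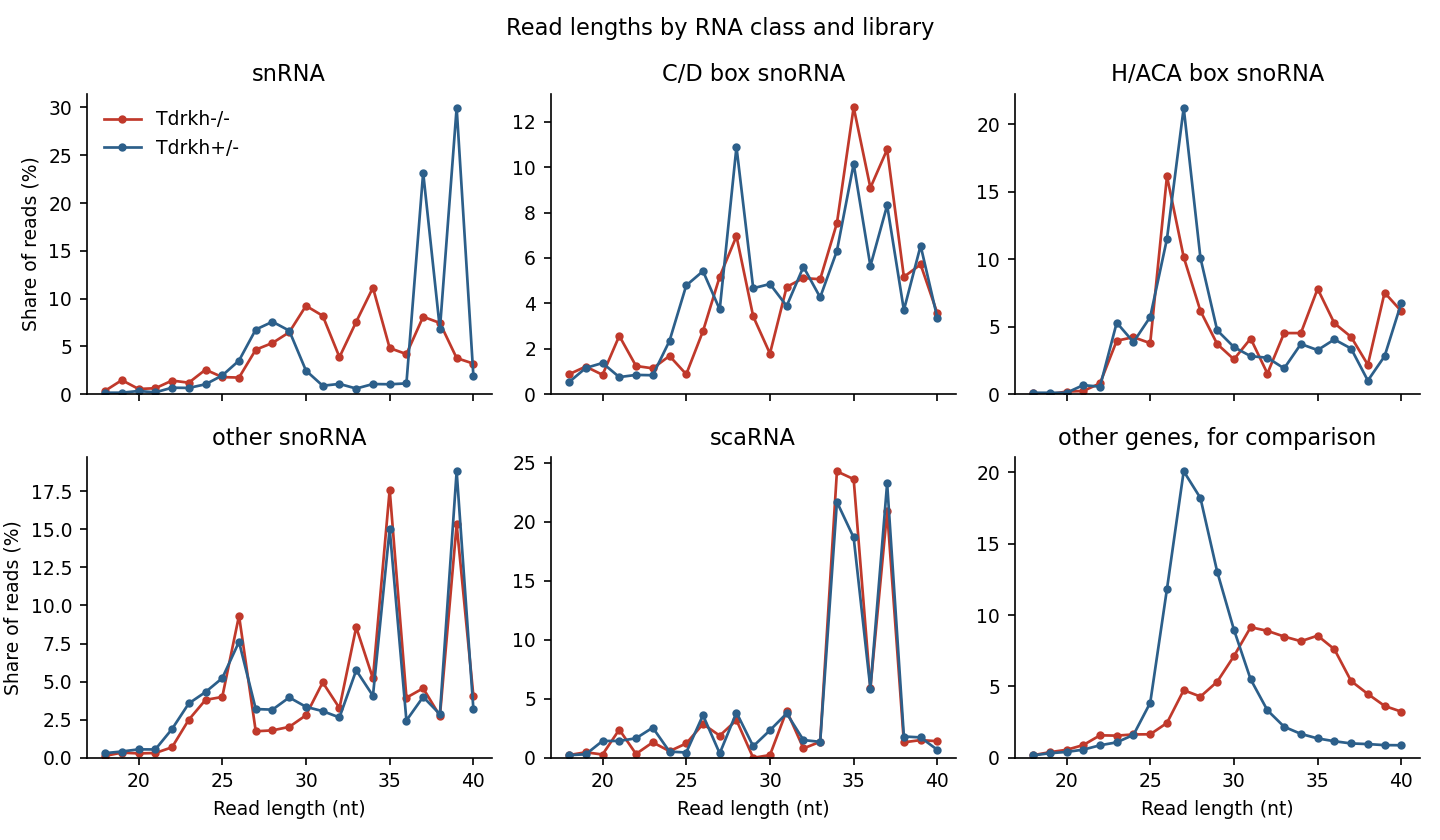
Share of reads, in percent, at each read length from 18 to 40 nt for the 5 classes and for reads in sense to genes of other types, Tdrkh-/- in red and Tdrkh+/- in blue. The other genes change from a peak at 27 nt to a broad hump from 31 nt, whereas scaRNAs peak between 34 and 37 nt and other snoRNAs at 26, 35 and 39 nt in both libraries. Single sequences make up much of these class peaks. In Tdrkh-/-, 1 sequence of Gm22711 gave 1415 of 1562.5 reads at 26 nt, 1 of Gm23262 gave 2526 of 2946 at 35 nt, and 1 of Gm24455 gave 1479 of 2565 at 39 nt. Among scaRNA reads of 35 nt, 1 sequence of Scarna17 gave 373 of 503.

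The same was seen gene by gene. Of 56 members with at least 50 reads in each library, 34 had a longer mean in Tdrkh-/- but only 14 by 1 nt or more, 2 were shorter by 1 nt or more, and the median difference was 0.19 nt. The most used start was the same base in 43 of the 56 and the most used end in 38. That start carried a median of 70.3% of a member's reads in Tdrkh-/- and 60.0% in Tdrkh+/-. The lowest difference was -2.30 nt, at Gm22581, and the highest 8.09 nt, at Rnu11, where the leading piece differed between the libraries.

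A small set of members had a mean longer by 2 nt or more in Tdrkh-/-, 8 of the 56. They are Rnu11, Rnu12, Snord34, and 5 others whose reads mostly begin with U inside the RNA. In Rnu11 and Rnu12 the leading piece differed between the libraries, as described below, so their means compare unlike pieces. Gm22710 had 1730 and 1079 reads (log2 ratio 0.61), of which 70.3% and 78.6% began with U, none lay at its 5′ end, and the mean length was 32.0 and 28.7 nt. All its reads also match 2900060B14Rik, the noncoding RNA whose exon holds it. Gm23497, in an exon of Tfcp2l1 that GENCODE marks as untranslated region, had 262 and 370 reads (-0.57), 96.6% and 98.9% with U first and 31.2 and 27.1 nt long. All reads of Gm23497 also match transcripts of other gene types. Its reads of 24 to 30 nt made up 47.3% and 98.1%, and none lay at its ends. Such matches to other gene types are not particular to these genes. With both libraries summed they held for 86.4% of H/ACA box, 49.5% of C/D box and 36.3% of snRNA reads. For other snoRNAs and scaRNAs the shares were 33.5% and 28.8%. Over all snRNA members, U came first in 55.2% and 21.6% of reads. Over the 4 snRNA members inside an exon of another gene on the same strand (Gm22710, Gm23497, Gm24871 and Gm26473), U came first in 74.2% (72.3 to 76.1) and 82.5% (80.5 to 84.3) of reads, with mean lengths of 31.9 and 28.3 nt. Gm22710 and Gm23497 supply nearly all of these 2029 and 1484 reads, since Gm24871 has 22.3 and 17 and Gm26473 15.0 and 17.5, so this sum adds little to the values of the first pair. The 17 snoRNA and scaRNA members inside exons did not share this: U came first in 17.6% and 19.4%, 93.9% and 94.8% of reads touched an end, and the means were 33.1 and 32.2 nt. Those 44 in retained introns had means of 34.0 and 32.0 nt, a step of 2.00 nt, with 79.4% and 84.8% of reads at an end. This Tdrkh+/- mean includes 722 reads of Gm23246 (mean 26.5 nt) and 213 of Gm25894 (25.4 nt), against 11 and 10 in Tdrkh-/-. Most of them come from starts at 0 in Tdrkh-/-, described below, so the step depends in part on such starts. Those 103 in other introns had means of 33.7 and 33.2 nt, with 74.9% and 75.2% of reads at an end.

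Gm22247, Gm25635 and Gm26175, 3 snoRNA copies of 131 nt in introns of Nans, Stxbp5 and Tmf1, are the other 3 of the 5. They are shown because their most used start is at the same place, nt 69, a U. The capitals mark it as the first base of the most read fragment.
Gm22247: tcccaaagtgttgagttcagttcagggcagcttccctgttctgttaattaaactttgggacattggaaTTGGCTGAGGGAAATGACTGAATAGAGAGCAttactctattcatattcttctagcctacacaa
Gm25635: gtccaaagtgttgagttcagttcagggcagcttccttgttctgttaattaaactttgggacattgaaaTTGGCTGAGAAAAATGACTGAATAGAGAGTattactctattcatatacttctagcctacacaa
Gm26175: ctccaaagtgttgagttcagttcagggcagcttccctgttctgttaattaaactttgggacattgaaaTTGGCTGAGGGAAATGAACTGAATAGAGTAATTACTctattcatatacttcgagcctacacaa
The loci are chr4:46495155-46495285 (plus), chr10:9852019-9852149 (minus) and chr6:97162817-97162947 (minus) of GRCm38. Gm22247 matches Gm25635 in 123 of 131 bases in place, and Gm26175 matches each of them in 114. Gm22247 had 441 and 144 reads (log2 ratio 1.54), 95.5% and 91.7% from nt 69, with means of 32.1 and 28.0 nt. Gm25635 had 298 and 159 (0.83), 92.6% and 89.3% from nt 69, with 32.7 and 29.9 nt. Gm26175 had 226 and 75 (1.52), 88.9% and 48.0% from nt 69, with 33.4 and 29.6 nt. In Gm22247 and Gm25635 the 5′ base was thus kept and the 3′ end moved. From Tdrkh+/- to Tdrkh-/- the most used end went from nt 94 to nt 99 in Gm22247 and from nt 98 to nt 100 in Gm25635. In Gm26175 it went from nt 96 to nt 104, but with only 48.0% of Tdrkh+/- reads from nt 69, other starts enter its length difference. Across the 56, the 16 members with U in at least 50% of Tdrkh+/- reads had a median length difference of 0.09 nt (10 longer) and the other 40 of 0.28 nt (24 longer). Gm23262, with U first in 53.8% and 59.8%, differed by 0.12 nt.

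**Figure D4:**
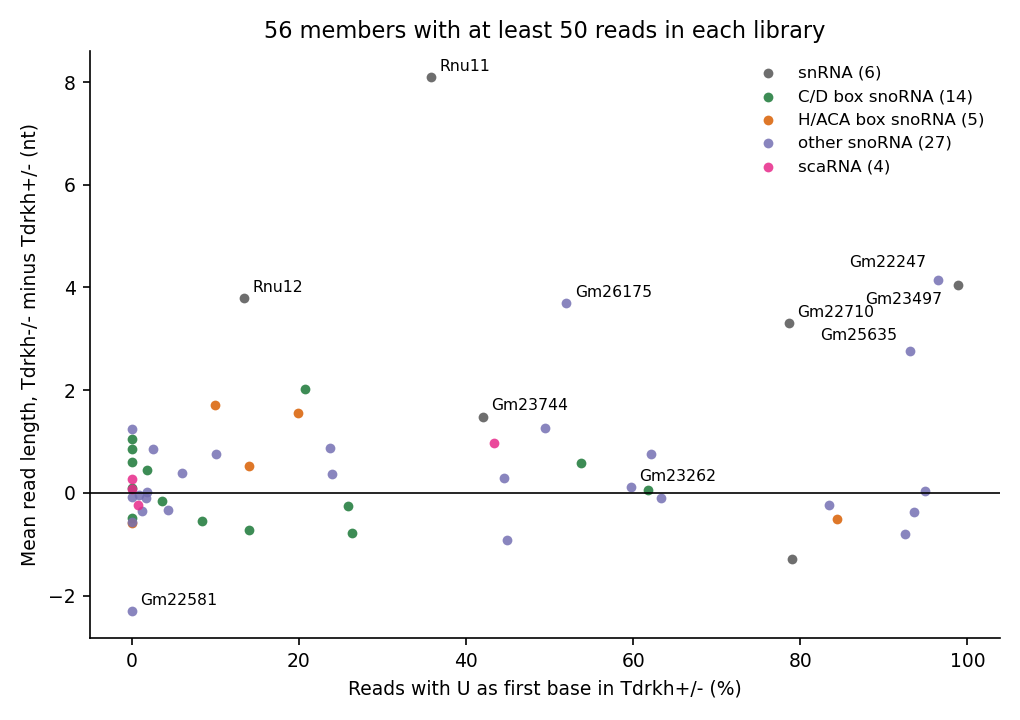
Mean read length in Tdrkh-/- minus that in Tdrkh+/- (nt) against the share of Tdrkh+/- reads with U as first base (percent) for the 56 members with at least 50 reads in each library; each point is a gene and colours are classes. Of the points, 40 lie within 1 nt of 0 and 8 lie above 2 nt.

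Gm23744, an annotated snRNA at chr1:155954574-155954722 (plus, outside other genes), had the highest ratio among the 53 members with at least 200 reads: 622 reads in Tdrkh-/- and 104 in Tdrkh+/-, a log2 ratio of 2.51 (2.21 to 2.82). Its first 68 bases are identical to those of Rnu2-10, and 78 of its first 80 are. Likeness to U2 thus goes on past nt 68, the cut used here. Of all reads that match Gm23744, 78.9% (75.9 to 81.6) and 92.0% (85.4 to 95.7) began after nt 68. The most used start was nt 116 in Tdrkh-/- (202 reads against 4) and nt 80 in Tdrkh+/- (25 reads against 30). After nt 68, U came first in 78.3% and 41.7% and mean length was 29.4 and 28.0 nt. Sequences that differ from it by 1 substitution were read 4119 and 239 times, more than its exact reads, and 91.9% of its exact reads also match transcripts of other gene types.

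The spliceosomal snRNAs proper showed another pattern: the libraries used different 5′ starts on the same RNA. Over the whole class, few snRNA reads lay at an end. At the 5′ end these were 1.36% in Tdrkh-/- and 0 in Tdrkh+/- (which allows up to 0.049% by the Wilson interval), and at the 3′ end 4.93% and 4.01%. U11 and U12 did not share this in Tdrkh+/-. After division, 0 and 50.8% of Rnu11 reads and 11.7% and 78.1% of Rnu12 reads ended within 3 nt of the last base. U2 was the most read, with 316 reads matching Rnu2-10 in Tdrkh-/- and 4322 in Tdrkh+/- (log2 ratio -3.85, -4.02 to -3.68). Its family of 24 genes that share reads had 962 and 5078 (-2.47). In Tdrkh+/-, 92.5% of the reads matching Rnu2-10 began at nt 145, which is the start of the capitals in Rnu2-10 above. In Tdrkh-/-, none began there, and the most used starts were nt 143 (108 reads, against 46 in Tdrkh+/-), nt 28 (99 against 0) and nt 14 (50 against 0). Over every listed sequence with the same first 18 bases, with an exact match or without one, the nt 145 start had 0 reads in Tdrkh-/- and 4504 in Tdrkh+/-, 375 of them without an exact match. Without the 6 starts of at least 20 reads in 1 library and 0 in the other, Rnu2-10 had 131 and 62 reads, a log2 ratio of 1.01; the direction of U2 rests on them. The U2 copy Gm25202, named for its low ratio, had 17.2 and 405 reads after division (-4.65).

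U11 went the other way. Rnu11, of the rare-intron spliceosome, matched 426 and 130 reads (log2 ratio 1.64, 1.35 to 1.93), of which 373 in Tdrkh-/- began at nt 69, where Tdrkh+/- had 0, while 61 in Tdrkh+/- began at nt 110, where Tdrkh-/- had 0. The leading piece of each library was thus at 0 in the other. U12 pairs with the branch site of rare introns. Rnu12 (U12) matched 242 and 335 reads (-0.54), and 120 and 278 after division among 3 genes (-1.29, 2.44-fold lower). Of the Tdrkh+/- reads, 219 began at nt 123 against 0, while 14 Tdrkh-/- reads began 1 nt before, at nt 122, and the leading Tdrkh-/- start of Rnu12, nt 82, had 49 reads against 13. U5 and U6 act together at the catalytic centre of the spliceosome. The U5 gene Rnu5g matched 134 and 17 reads (2.91), 126 of the former from nt 10 against 0 and 16 of the latter from nt 44 against 0. Its family of 6 genes that share reads had 141 and 215 (-0.68), so the direction turns over with the copy Gm25099, which matched 141 and 179. The 2 genes with a Rnu6 symbol (U6) matched 15 and 398 reads (-4.80), and their family of 204 genes that share reads had 22 and 410 (-4.29). All 398 began at nt 36 (217) or nt 24 (181), where Tdrkh-/- had 0, so the direction of U6 too rests on such starts. U1 had 150 and 119 reads (0.26), and on Rnu1b1 the leading starts were nt 147 (41 reads against 0) and nt 108 (80 against 0). Rnu7, the histone mRNA processing U7 RNA, had 0 reads in both, and no gene carries a Rnu4 symbol in the annotation. Where U1, U2, U5, U6 and U11 were read, then, the leading start of 1 library was at 0 in the other or, for nt 143 of U2, was minor there.

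**Figure D5:**
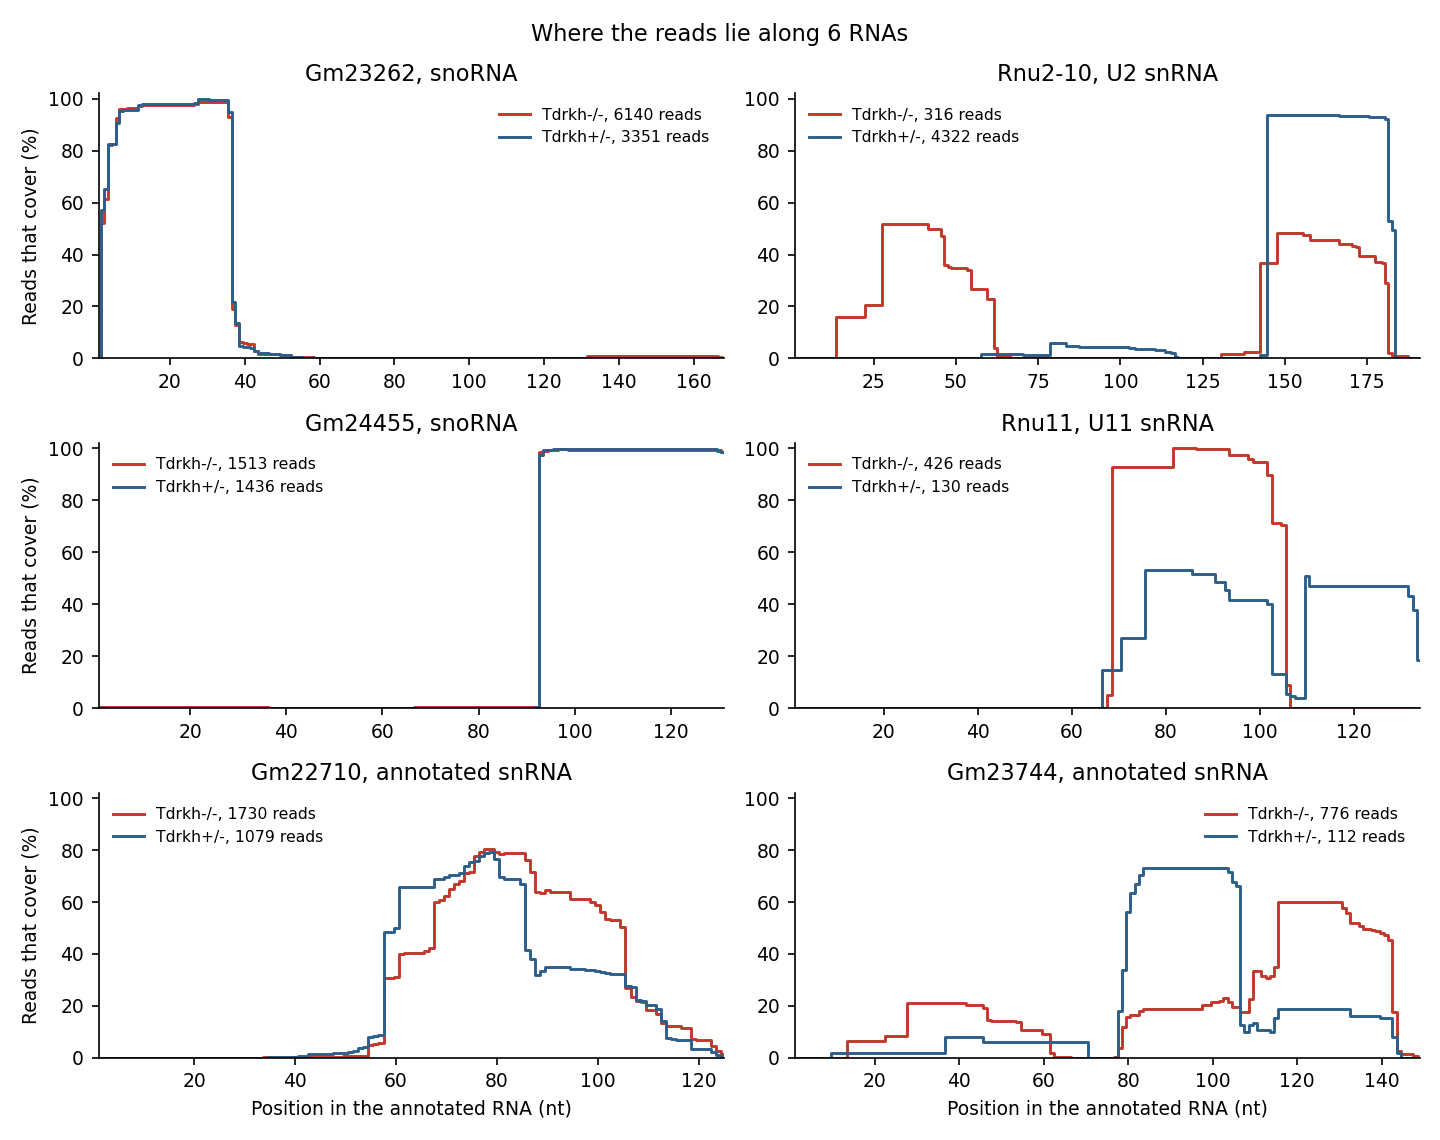
Share of each library's reads, in percent, that cover each base of 6 RNAs (position in nt from the 5′ end), Tdrkh-/- in red and Tdrkh+/- in blue, with the reads that match each RNA in the legend. The lines coincide for Gm23262 and Gm24455, differ by position for Rnu2-10 and Rnu11, and for Gm22710 share the leading start, nt 58, but reach further 3′ in Tdrkh-/-, which also has 312 reads from nt 68 against 36.

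Starts read in 1 library alone were counted over all listed sequences that share their first 18 bases. Of 48 member starts with at least 100 reads in Tdrkh+/-, 11 (22.9%) had 0 in Tdrkh-/-, against 6.88% of all 37600 such starts in that library and 2.60% of those in sense to other genes. Of 62 with at least 100 in Tdrkh-/-, 3 (4.84%) had 0 in Tdrkh+/-, against 2.36% of all 45345 and 1.47%. Besides U2 at nt 145 and nt 79 (0 and 531 reads), U6 and U11, the list held the U3 gene Rnu3b1 at nt 58 (0 and 421), Snord14c at nt 1 (0 and 370), the U8 gene Snord118 at nt 48 (0 and 137) and Snord85 (0 and 122). U3 and U8 RNAs take part in the processing of precursor ribosomal RNA rather than in methylation. Snord118 had 0 and 134 reads in all, at least 47.0-fold lower in Tdrkh-/- with a floor of 3 counts, and U3 genes together had 155 and 522 (log2 ratio -1.83). H/ACA box snoRNAs had no such start among 4 and 1 tested in Tdrkh-/- and Tdrkh+/-, and scaRNAs none among 5 and 5, too few to show a difference from the other classes. Whether such sequences were removed from 1 of the lists before deposit is not stated in the labels and was not tested, so each 0, and the U2, U6, U11 and snRNA class ratios that rest on them, describe the lists as deposited.

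Shifts by a base occur among them. Gm23246, a snoRNA in a retained intron of Snhg1, had 11 and 722 reads (about 69-fold lower, log2 ratio -6.11, -7.12 to -5.26); 714 Tdrkh+/- reads began at nt 3, where Tdrkh-/- had 0, while its 11 began at nt 4 and nt 1. Gm25894, from another retained intron of Snhg1, had 10 and 213 (22.4-fold lower), with 96.7% of Tdrkh+/- reads from nt 2 and all 10 Tdrkh-/- reads from nt 3. These folds use exact reads only. Sequences with 1 substitution were read 21 and 65 times for Gm23246 and 37 and 100 times for Gm25894, in Tdrkh-/- more than the exact reads of each. Snhg1 reads as a whole were 793 and 448 (0.75), a ratio in the other direction. Gm25099, the copy in the U5 family, had 29.3 and 176 reads (-2.67), 98.3% of the latter from nt 62, and 48 and 17.7 reads with 1 substitution. Snord45c, in an exon of Rabggtb, had 82 and 231 (-1.57): 42.0% of Tdrkh+/- reads and none of Tdrkh-/- began at its 5′ end. Gm25506, in an intron of Tnpo2, was the last of the 5 highest, with 144 and 59 reads (1.21), most of them from nt 2 in both.

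Small RNA reads from the genes of the partner proteins were counted the same way, on 4 lists. Counts so small are to be read beside the 15.8% and 14.9% of all genes past 2-fold. Of 4 C/D box snoRNP protein genes, 1 was at least 2-fold higher, Nop58 with 2823 and 969 reads (log2 ratio 1.47), and 0 lower, and of 4 H/ACA snoRNP protein genes 0 passed 2-fold in either direction. Among 13 Sm and snRNP protein genes, 1 was at least 2-fold lower, Snrpg with 228 and 504 reads (-1.22), and 0 higher. Of 16 genes taken as noncoding snoRNA hosts by symbol (Gas5 or Snhg), 1 was higher, Snhg14 with 8542 and 3671 (1.15). Lower were 2, Snhg7os with 3 and 22 and Snhg9 with 8 and 26. A symbol alone does not show that a gene holds a snoRNA. The medians of the lists were -0.24, 0.12, -0.25 and -0.08. The 17 annotated snoRNA genes with Snord113 to Snord116 symbols, from imprinted clusters, had 0 reads in each library.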

How the data were processed

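Per the labels, RNA of 15 to 40 nt was cut from a gel and made into 1 library per genotype with an Illumina small RNA kit. The authors deposited, per library, the raw read count of each distinct sequence. Bowtie and the build mm9 are named in the submitters' processing notes; how adapters were removed is not given in the sources used here, and alignments by the authors were not used. All sequences were matched exactly, in sense, to GENCODE M21 transcripts (GRCm38) by a matcher in Numba 0.67.0 and NumPy 2.4.6 under Python 3.11.15. Tables were made with pandas 2.3.3, intervals with SciPy 1.17.1 and figures with Matplotlib 3.10.9. Checked against a plain search, 0 of 120 sequences differed. Reads that match several members were divided equally. Ratios are Tdrkh-/- over Tdrkh+/- per microRNA read with exact conditional binomial intervals, and shares carry Wilson intervals, all at 95%. PCR copies cannot be told from separate molecules. A library with 0 reads was set to a floor of 3 counts. Ends were matched within 3 nt. The annotation gives positions within exons and introns on the same strand. Genes are called by symbol; C/D box means Snord or Rnu3 symbols and H/ACA box Snora symbols.

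Named members are the 5 most read of each class and, from 200 reads up, the 5 with the highest and the 5 with the lowest ratio, copies passed over; Rnu2-10, Gm25635, Snord118, Snord14c and other RNAs named for their starts were chosen after their values were seen. The members, lists and classes were chosen with earlier results of these data known. The ratio step was tested on simulated data drawn as Poisson counts for 22030 genes: 100 of 100 genes changed 4-fold and 4 of 100 changed 1.5-fold passed 2-fold, as did 1.46% of unchanged genes. The draws hold no variation between animals. Alternatives were: sequences read once left out, each distinct sequence given 1 count, sequences also in other gene types or in microRNA hairpins left out, scaling per read listed, a minimum of 100 reads and end tolerances of 0 and 5 nt; added after seeing the data were starts with 0 reads in 1 library left out, the most abundant member left out and sequences in 1 gene alone.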

Additional observations from a re-analysis of the deposited data

Results flagged for a closer look

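Reads antisense to the snRNA, snoRNA and scaRNA genes, which the comparisons above do not use, numbered 288 in Tdrkh-/- and 105 in Tdrkh+/-, above the 3 counts that a count of 0 allows. Of these, 210 and 38 lay on Gm23744, and 44 and 53 had no sense match to a gene. On Gm23744, sense and antisense reads that overlap by 10 nt at their 5′ ends were 9.04% of all Tdrkh-/- pairs and 18.5% of all Tdrkh+/- pairs, against 4.17% for an even spread over overlaps of 1 to 24 nt. Overlaps of 17 nt were most frequent in Tdrkh-/- (15.8%) and of 10 nt in Tdrkh+/-, where they rest on 38 antisense reads.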

How the results depend on the processing

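No paired analysis was possible because the groups share only replicate number 1, with 1 library each. Of the 12 values (5 class log2 ratios, 5 mean length differences in nt, and 2 counts past 2-fold among 198 members tested), all 12 kept direction and size within counting error or within 1.5 times when sequences read once, or those in microRNA hairpins, were left out.

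With each distinct sequence counted once, log2 ratios were 0.12 for snRNA, -0.24 for C/D box snoRNA, -0.027 for H/ACA box snoRNA, -0.021 for other snoRNA and 0.18 for scaRNA, the snRNA and C/D box length differences were 0.78 and 0.30, and of 61 members tested 2 were higher and 2 lower. Without sequences also in other gene types, the ratio was -2.27 for snRNA and 0.72 for other snoRNA, the length differences were 0.40 (C/D box), 0.62 (H/ACA), 0.21 (other snoRNA) and 0.70 (scaRNA), and 30 of 119 members were higher. Per read listed, the 5 ratios in the same order were -1.43, -0.52, -0.018, 0.017 and 0.18. Of the end shares, 17 moved beyond counting error and 3 did not with that count of distinct sequences, 17 and 3 with ends matched at 0 nt, and 8 and 12 at 5 nt. At 100 reads, 12 of 82 members were higher and 22 lower.

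Without starts at 0 in 1 library, ratios were 0.38 (snRNA), 0.32 (C/D box) and 0.57 (other snoRNA), the length differences in that order were 2.69, -0.67 and -0.067, and 16 of 164 members were lower. With sequences in 1 gene alone, they were 0.32 and 2.56 for snRNA and 0.20 and -0.18 for C/D box snoRNA, and 20 of 147 members were lower. Without its most abundant member, the snRNA ratio was -1.57 and its length difference -3.27, and the ratios were 0.58 for H/ACA, 0.27 for other snoRNA and 0.38 for scaRNA. The causes were not tested, apart from fewer genes at the higher minimum. Depth limits the members of few reads: in the simulated libraries 1.46% of unchanged genes passed 2-fold, and 0 of those with at least 200 reads.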
